A study of Mus musculus with 30 samples.

Results

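The genes described here are the glucocorticoid receptor gene Nr3c1 and 8 genes that glucocorticoids are known to regulate, Fkbp5, Sgk1, Tsc22d3, Ddit4, Zbtb16, Sult1a1, Mt2 and Errfi1. They were chosen by name, with earlier results of these data known. The rule named Mt2a, a human symbol, for which the mouse gene Mt2 was taken. Where a gene had several probe sets with 1 gene symbol, the one brightest on average across all 30 arrays stood for it. All 9 genes had such a probe set among 18193 genes and were kept among the 15726 that passed a filter on low values. Levels are log2 intensities, so a difference of 1 is a doubling.

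RNA came from astrocytes sorted by green fluorescence from brains of young adult male Tg(Aldh1l1-eGFP) OFC789Gsat mice on a Swiss Webster background. The astrocyte gene Aldh1l1 drives the reporter in this line, and all 8 groups carried it. One experiment was middle cerebral artery occlusion (MCAO) for 1 hr with reperfusion, a model of stroke, with sham surgery as its control. There were 5 MCAO and 4 sham arrays at 1 day, 3 and 3 at 3 days, and 3 and 3 at 7 days. In the other experiment mice received 5 mg/kg lipopolysaccharide (LPS), a bacterial cell wall product, by intraperitoneal injection (5 arrays) or endotoxin-free saline (4 arrays), and cells were taken after 1 day. Replicates were labelled as biological, but the number of mice behind an array is not given in the sources used here. Which part of the brain the sorted cells came from is not given either.

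Glucocorticoids are steroid hormones that the adrenal gland releases under stress and during inflammation. They enter cells and bind the receptor encoded by Nr3c1, which is held ready in the cytoplasm by heat shock proteins and immunophilins. The bound receptor moves to the nucleus and acts at response elements, palindromes of the motif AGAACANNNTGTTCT, or through other transcription factors. Astrocytes express the receptor and respond to the hormone with a broad set of transcripts, many of which other stress signals also induce.

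The sorted cells carried astrocyte markers in every group, with mean Aldh1l1 levels between 12.38 and 12.78. The arrays fell into a brighter set of 16 and a dimmer set of 14, by each array's 99.9th percentile of intensity (17555 to 20155 against 12522 to 15590). These sets were defined after the data were seen, and the labels do not name them. All 9 surgery arrays at 1 day were bright and all 6 at 7 days were dim, so for changes in level between those times, time and set cannot be told apart. At 3 days each group held 1 bright array (array 3) and 2 dim ones. The LPS group held 3 bright (arrays 1 to 3) and 2 dim arrays, and the saline group 2 bright (arrays 1 and 2) and 2 dim. Array 5 of the LPS group had a median intensity of 94, against 68 to 73 elsewhere. Array 3 of the 1-day sham group was the highest sham array on Fkbp5, Sgk1, Tsc22d3, Zbtb16, Sult1a1, Mt2 and Errfi1. On Sult1a1 array 2 lay close to it (11.37 against 11.39), and on Ddit4 and Nr3c1 it was not the highest. Its summed endothelial, neuronal, oligodendrocyte, pericyte and ependymal markers were also the highest of that group (9973, 16324, 36853, 7816 and 1326). Its other marker sums were not, and its astrocyte sum was the lowest (146093). In sorted cells a change in the mix of cells and a change of RNA per cell cannot be told apart.

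Promoter windows of 250 bases before a start site were held for 7 of the 9 genes (RefSeq, GRCm38.p6, 15 windows). Windows for Zbtb16 and Nr3c1 were not used here. The response element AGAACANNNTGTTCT was searched on both strands, and so was its single arm TGTTCT, which the palindrome also contains. The palindrome was in 0.00913% and the arm in 16.1% of 32851 windows across the genome. The palindrome was found in 1 window of Sgk1, starting 189 bases before the start site, and arms were found in windows of Sgk1, Tsc22d3 and Sult1a1. One window of each of these 3 genes is printed, since it held an arm. In the results that follow all 3 were higher in sham than in saline astrocytes. So were Fkbp5 and Mt2, whose windows held neither motif. For Sgk1 the printed window is the one with the palindrome, and 2 other windows of Sgk1, at chr10:21881934-21882183 and chr10:21991973-21992222, held 1 arm each. Capitals mark the arms, and in the first window the pair of arms 3 bases apart is the palindrome.
Sgk1, chr10:21993640-21993889, plus strand: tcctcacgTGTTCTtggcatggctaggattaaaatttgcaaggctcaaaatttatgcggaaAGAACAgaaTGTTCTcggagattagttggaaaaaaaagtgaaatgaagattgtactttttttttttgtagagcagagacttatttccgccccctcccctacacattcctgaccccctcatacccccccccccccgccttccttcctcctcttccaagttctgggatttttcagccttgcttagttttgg
Tsc22d3, chrX:140600523-140600772, minus strand: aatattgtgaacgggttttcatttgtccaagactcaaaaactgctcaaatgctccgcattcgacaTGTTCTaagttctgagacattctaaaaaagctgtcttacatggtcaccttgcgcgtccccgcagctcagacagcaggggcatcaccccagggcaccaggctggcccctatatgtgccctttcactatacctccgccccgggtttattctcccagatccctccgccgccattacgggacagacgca
Sult1a1, chr7:126676419-126676668, minus strand: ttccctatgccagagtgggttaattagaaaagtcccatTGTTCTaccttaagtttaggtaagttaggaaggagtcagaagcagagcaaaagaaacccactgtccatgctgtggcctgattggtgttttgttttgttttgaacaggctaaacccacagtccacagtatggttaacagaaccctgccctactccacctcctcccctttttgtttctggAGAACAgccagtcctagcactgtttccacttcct
The windows of Fkbp5, Ddit4, Mt2 and Errfi1 held neither motif. A match in these letters is a description of the sequence and not a measured binding site.

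**Figure D1:**
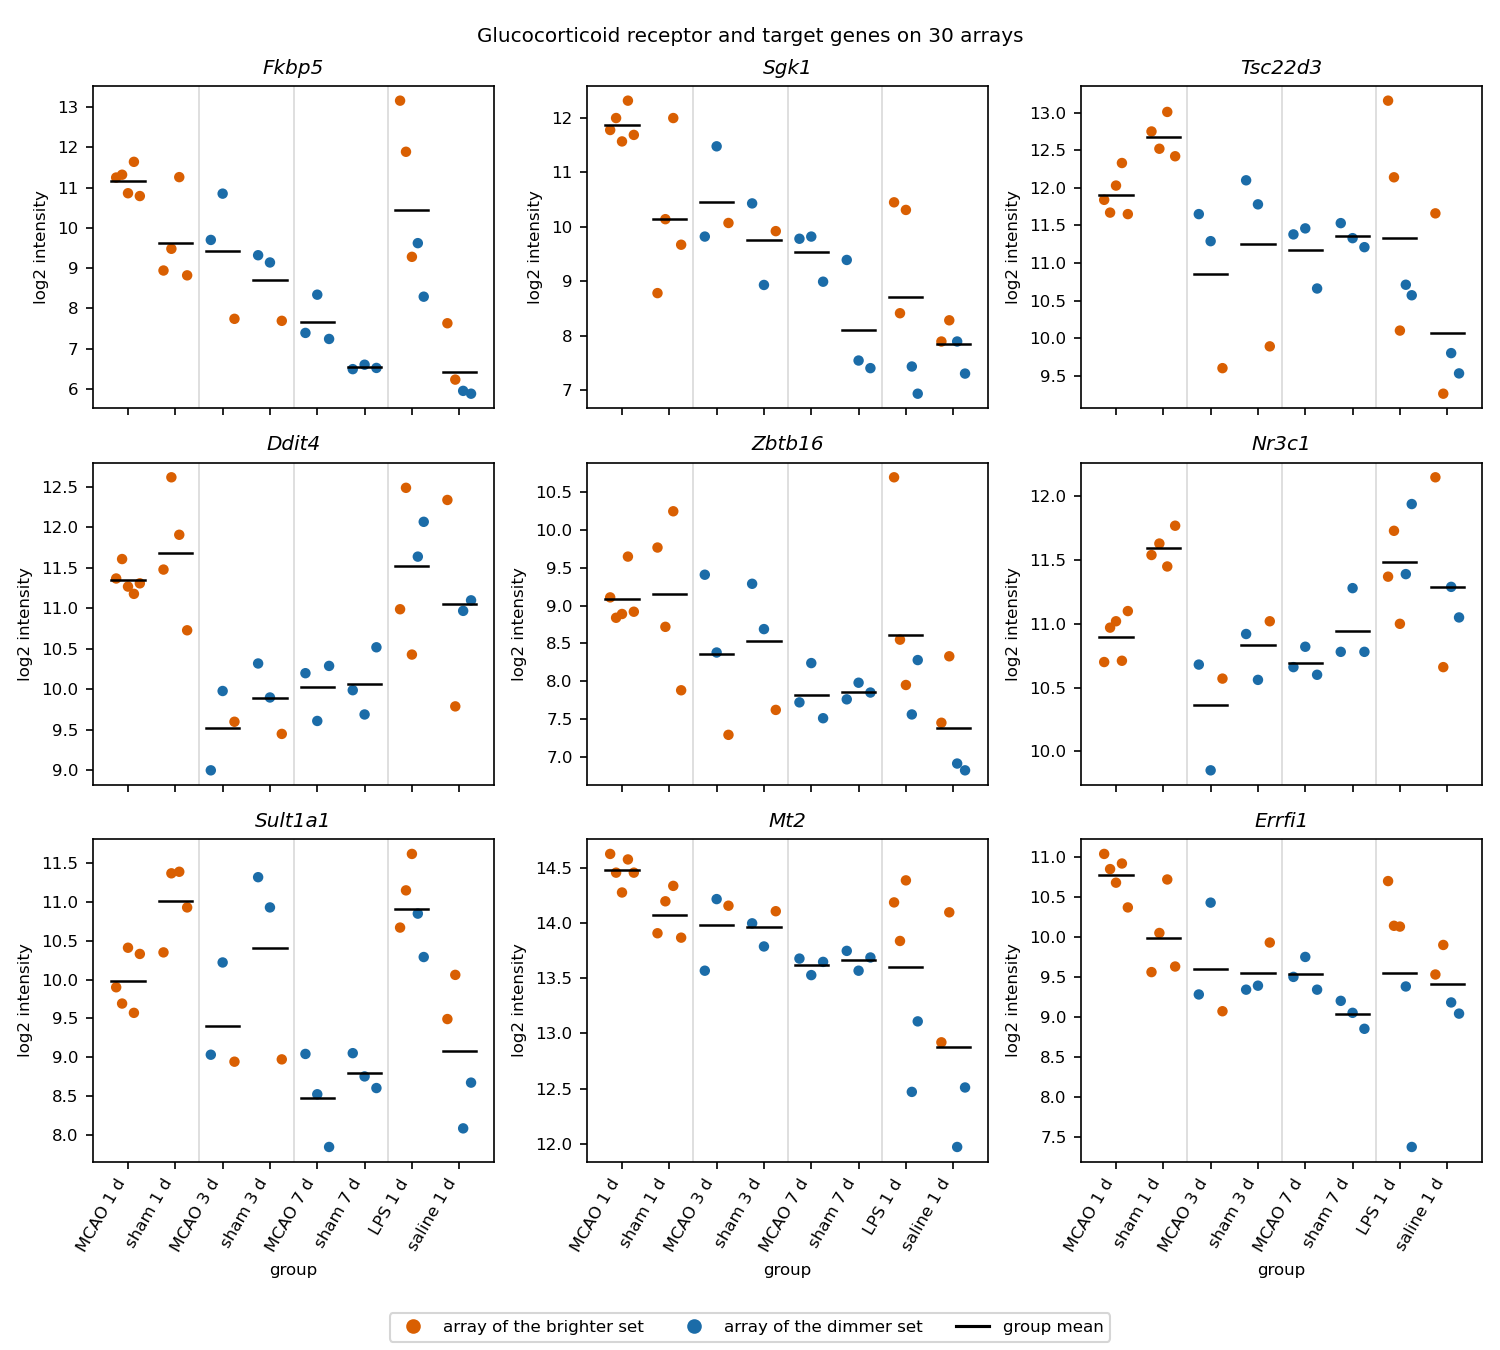
Log2 intensity (y axis) of the 9 genes on each of the 30 arrays, by group (x axis). Orange points are arrays of the brighter set, blue points arrays of the dimmer set and black lines group means. The 5 MCAO arrays for Nr3c1 at 1 day lie at 10.70 to 11.10, below the 4 sham arrays at 11.45 to 11.77.

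One day after MCAO the receptor transcript itself was lower than after sham surgery, and none of its 8 targets passed the test. Nr3c1 fell to a mean of 10.90 ± 0.18 in MCAO astrocytes, against 11.60 ± 0.14 in sham astrocytes (SD, n = 5 and 4). Sgk1 and Fkbp5 had the largest positive differences, with intervals that lay above 0, and Sult1a1 and Tsc22d3 were at negative values. The members thus did not move one way, with 4 positive and 5 negative differences and a median of -0.07, beside -0.05 over all genes. Of all genes tested 12.7% were called in either direction and 6.17% as lower, so 1 call among 9 genes lies near the background.

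The Nr3c1 levels were 10.70, 10.97, 11.02, 10.71 and 11.10 on the MCAO arrays and 11.54, 11.63, 11.45 and 11.77 on the sham arrays. All MCAO arrays lay below all sham arrays, as was the case in either direction for 27.3% of all genes. The difference was -0.70 ± 0.23 (SE, adjusted p = 0.0418), a 1.63-fold lower level. The 3 brightest probe sets of Nr3c1 had differences of -0.70, -0.51 and -0.63, while the other 3 lay between -0.27 and 0.03. The call was narrow. With the numbers in the sample descriptions as blocks, which pair MCAO with sham arrays and leave out MCAO array 1, the difference was -0.65 (adjusted p = 0.141), and 1218 instead of 1991 genes were called. It was also lost without any 1 of the 9 arrays except MCAO array 5 (adjusted p from 0.0527 to 0.127).

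Fkbp5 encodes a co-chaperone that lowers the receptor's affinity for hormone and is itself induced by it. It had levels of 11.25, 11.32, 10.86, 11.64 and 10.79 on MCAO arrays and 8.94, 9.48, 11.26 and 8.82 on sham arrays. Sham arrays 1, 2 and 4 lay well below all MCAO arrays, and sham array 3 lay among them. The difference was 1.55 ± 0.72 (95% interval 0.08 to 3.02, adjusted p = 0.182).

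Sgk1 encodes a kinase that acts on ion channels and transporters. Its levels were 11.78, 12, 11.57, 12.32 and 11.69 after MCAO and 8.78, 10.14, 12 and 9.67 after sham surgery. Again sham array 3 was the one that overlapped the MCAO arrays. The difference was 1.73 ± 0.62 (interval 0.45 to 3.01, adjusted p = 0.0701), and 1.75 with the description numbers as blocks (adjusted p = 0.116). Leaving out 1 array gave 1.27 to 2.34, with adjusted p up to 0.291, and the call was gained only at the upper end, without sham array 3 (adjusted p = 0.0119). Errfi1, whose product restrains the epidermal growth factor receptor, had 10.37 to 11.04 on MCAO arrays and 9.56 to 10.72 on sham arrays (0.78 ± 0.42, adjusted p = 0.276).

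Tsc22d3 encodes the glucocorticoid-induced leucine zipper, which restrains inflammatory transcription factors. Its levels were 11.84, 11.67, 12.03, 12.33 and 11.65 on MCAO arrays and 12.75, 12.52, 13.01 and 12.42 on sham arrays. No MCAO array reached the sham arrays, but the difference of -0.77 ± 0.53 was not called in the fit across all 8 groups (adjusted p = 0.453). The dimmer probe sets of Tsc22d3 had -0.26, -0.11 and 0.02. The mean of its probe sets gave -0.28 in the same fit (adjusted p = 0.487). Sult1a1, a sulfotransferase of phenolic compounds, had 9.90, 9.69, 10.41, 9.57 and 10.33 against 10.35, 11.37, 11.39 and 10.93 in sham. Only sham array 1 lay within the range of the MCAO arrays, and the difference was -1.03 ± 0.41 (interval -1.88 to -0.18, adjusted p = 0.109).

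The other 3 targets were not called in the fit across all groups. Mt2, a zinc-binding metallothionein, had 14.28 to 14.63 after MCAO and 13.87 to 14.34 after sham surgery (0.40 ± 0.32). For Ddit4, an inhibitor of the growth kinase complex mTORC1 that hypoxia also induces, the ranges were 11.18 to 11.61 and 10.73 to 12.62 (-0.34 ± 0.41). For the zinc finger repressor Zbtb16 they were 8.84 to 9.65 and 7.88 to 10.25 (-0.07 ± 0.52). A fit of these 9 arrays by themselves, with a spread estimated from them alone, called 7 of the 9 genes at the same differences. Fkbp5 (adjusted p = 0.0216), Sgk1 (0.0262), Errfi1 (0.0261) and Mt2 (0.024) were then higher, and Sult1a1 (0.00939), Tsc22d3 (0.00543) and Nr3c1 were lower. In that fit 5180 genes in all were called.

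Of the wider pathway at 1 day, the mineralocorticoid receptor Nr3c2, which binds the same hormone with higher affinity, fell by 1.06 on the log2 scale (adjusted p = 0.00352). It had 7.39 ± 0.24 in MCAO and 8.45 ± 0.29 in sham astrocytes (SD). It and Nr3c1 were the called genes among 4 tested for receptors and hormone metabolism. Hsd11b1, the enzyme that regenerates active hormone inside cells, had -0.85 (adjusted p = 0.103). Of 7 chaperones of the receptor 0 were called. Of 8 coregulators Ppargc1a, a coactivator of mitochondrial genes, fell by 1.43 (adjusted p = 0.0102).

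Among 22 other genes that glucocorticoids induce, 7 were higher and 1 lower after MCAO, with a median of -0.01. Of all 15726 genes 1021 were called as higher and 970 as lower. The higher ones included the transcription factor gene Cebpd (2.71, adjusted p = 1e-04), the cell cycle inhibitor gene Cdkn1a (2.56, adjusted p = 0.000403) and Anxa1, which encodes an anti-inflammatory annexin (2.16, adjusted p = 0.00198). The lower one, Sesn1 (-0.97, adjusted p = 0.0156), is named after its value was seen. In the fit of the 9 arrays alone 7 were higher and 6 lower, and 5180 of all genes were called. Markers of other cells were measured beside these genes. Summed endothelial markers ranged from 1475 to 9122 on MCAO arrays and from 2920 to 9973 on sham arrays, with 1 of 10 called, Vwf. Oligodendrocyte markers had sums of 12738 to 28611 and 17277 to 36853, with 2 of 9 lower, and 0 of 10 neuronal and 0 of 6 ependymal markers were called. Astrocyte markers had 1 of 11 higher and 2 lower, and their sums of 127036 to 143428 after MCAO lay below those of 146093 to 154097 after sham surgery. Of neutrophil and monocyte markers 2 of 7 were higher, with sums of 463 to 516 against 388 to 426 in sham. Il1r2 is on this list and also among the 22 glucocorticoid-induced genes, so these lists are not separate. It had 7.22 ± 0.11 after MCAO and 6.35 ± 0.08 after sham surgery (SD). Of microglial markers 1 of 10 and of pericyte markers 1 of 8 were higher, and 1 of 8 oligodendrocyte precursor markers was lower. The highest endothelial sums belonged to MCAO array 4 and sham array 3, which also held the highest Fkbp5 and Sgk1 levels of their groups. The part of these markers in the results was not tested.

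**Figure D2:**
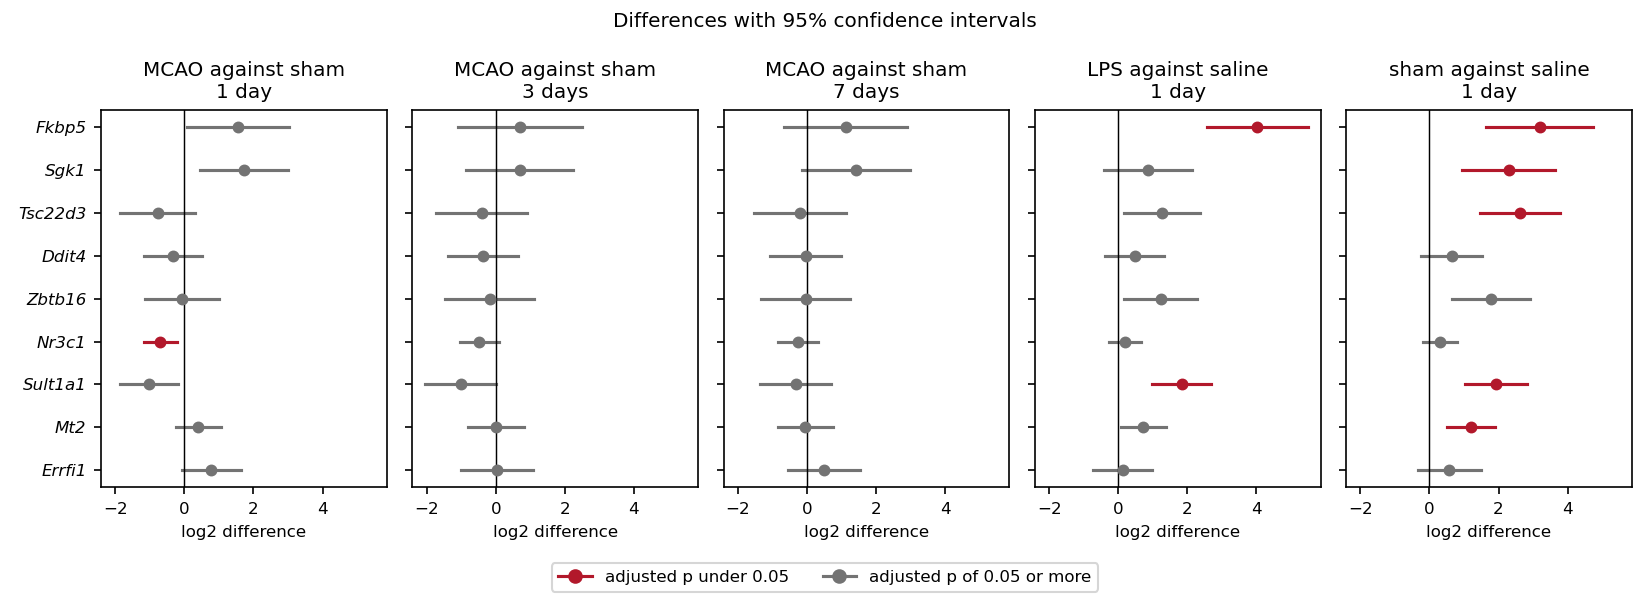
Log2 differences (x axes) of the 9 genes (y axis) in 5 comparisons, with 95% confidence intervals. Red marks an adjusted p under 0.05 and grey the rest. Nr3c1 at 1 day after MCAO is the call in the 3 MCAO panels, Fkbp5 and Sult1a1 are called after LPS, and 5 genes are called in sham against saline.

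At 3 and at 7 days after MCAO none of the 9 genes was called against sham by limma in the fit across all groups. At either time 0 of them had an unadjusted p under 0.05. Over all genes 0.674% were called at 3 days and 0.0254% at 7 days. Unadjusted p was under 0.05 for 1499 and 412 genes, so there were few calls for any gene to join.

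At 3 days Sult1a1 came nearest, with 9.03, 10.22 and 8.94 on MCAO arrays and 11.32, 10.93 and 8.97 on sham arrays. The dim arrays 1 and 2 differed between the groups and the bright arrays 3 did not. The difference was -1.01 ± 0.50 (adjusted p = 0.545), and in the dim arrays alone, 2 against 2, it was -1.50 (adjusted p = 0.0419). MCAO array 3 and sham array 3 also had the highest oligodendrocyte precursor sums of their groups (10019 and 13984). The same held for their astrocyte sums (134748 and 137508). The part of these markers was not tested. Nr3c1 had 10.68, 9.85 and 10.57 after MCAO and 10.92, 10.56 and 11.02 after sham surgery (-0.47 ± 0.28, adjusted p = 0.699). Fkbp5 was at 9.70, 10.85 and 7.74 after MCAO, against 9.32, 9.14 and 7.69 in sham, and the bright array was the lowest in each group. The other 6 genes had differences from -0.41 (Tsc22d3) to 0.70 (Sgk1).

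At 7 days Fkbp5 was at 7.39, 8.34 and 7.24 on MCAO arrays and 6.49, 6.60 and 6.52 on sham arrays. All MCAO arrays lay above all sham arrays, as in 16.3% of genes in either direction, but the difference of 1.12 ± 0.87 was not called (adjusted p = 1). The same held for Errfi1, with 9.34 to 9.75 against 8.85 to 9.20 in sham (0.49 ± 0.51). A dimmer probe set of each of these genes went the other way, with -0.28 for Fkbp5 and -0.08 for Errfi1. Sgk1 had 9.78, 9.82 and 8.99 after MCAO, against 9.39, 7.54 and 7.40 after sham surgery (1.42 ± 0.76, adjusted p = 1). One sham array thus lay among the MCAO arrays. Nr3c1 was at -0.25 ± 0.28, and the other 5 genes lay between -0.33 and -0.03. Of the cell type markers at 7 days, only the oligodendrocyte precursor list held a call, with 1 of 8 higher. Its sums were 6274 to 7726 after MCAO and 3523 to 4570 after sham surgery, and their part was not tested. For these 9 genes the effect of MCAO at 3 or 7 days was not shown to differ from that at 1 day, with 0 calls in either test of the difference (background 0.00636% and 0.356%) and 0 genes at an unadjusted p under 0.05. The interval for Fkbp5 at 3 days minus 1 day, for example, ran from -3.15 to 1.48. Of the 4 lists of other pathway genes 0 members were called at 3 days or at 7 days in the fit across all groups. A fit of the MCAO and sham arrays by themselves called 4 of the 22 other glucocorticoid-induced genes as higher at 7 days, Anxa1 (1.46, adjusted p = 0.0354), Cdkn1a (1.52, 0.0117), Cebpd (1.94, 0.0446) and Tgm2, which encodes a protein cross-linking transglutaminase (1.88, 0.0105), and 0 at 3 days. In the dim arrays alone Anxa1 (2.51, adjusted p = 0.00303) and Tgm2 (2.01, adjusted p = 0.0352) were called at 3 days. The count at 3 days was also 2 without MCAO array 3. With array weights 6 were higher and 1 lower at 3 days, and 5 were higher at 7 days. The number called among all genes changed with the fit as well. At 3 days it was 866 between dim arrays, 650 without MCAO array 3 and 1937 with weights, against 106 in the fit across all groups. At 7 days it was 205 in the MCAO and sham arrays by themselves and 525 with weights, against 4.

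One day after LPS all 9 genes had positive differences from saline, and Fkbp5 and Sult1a1 were called. Fkbp5 was 16.3-fold and Sult1a1 3.58-fold higher, and the receptor gene Nr3c1 was at 0.20 ± 0.23 (interval -0.27 to 0.67). Over all genes 3.11% were called, 2.37% as higher, and 2 of 9 lies above that share. The 9 genes were chosen with earlier results of these data known, so this is a description and not a test. The median of the 9 differences was 0.87, beside 0.07 over all genes. Centring each array on its median moved the all-gene median to -0.03, and all 9 differences stayed positive. Within the sets of arrays 3 of them changed sign, Errfi1 (0.61 in bright and -0.74 in dim arrays), Sgk1 (1.64 and -0.42) and Nr3c1 (-0.04 and 0.49), none of them called. Leaving out 1 array gave -0.16 to 0.68 for Errfi1 and -0.01 to 0.49 for Nr3c1.

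Fkbp5 levels were 13.16, 11.89, 9.28, 9.62 and 8.29 on LPS arrays and 7.63, 6.23, 5.95 and 5.88 on saline arrays. Every LPS array lay above every saline array, as held for 1.88% of genes, but the LPS arrays themselves spread widely. The difference was 4.02 ± 0.72 (interval 2.56 to 5.49, adjusted p = 0.00119). It was 4.51 in the bright arrays alone (adjusted p = 0.00121) and 3.04 in the dim arrays alone (adjusted p = 0.0569). Leaving out any 1 of the 9 arrays kept the call, with differences from 3.35 to 4.56. A fit of the LPS and saline arrays by themselves gave adjusted p = 0.098 at the same difference. A dimmer probe set of Fkbp5 had 1.07, and the mean of its probe sets gave 1.66 (adjusted p = 0.00281), so the size of the fold depends on the probe set.

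Sult1a1 was at 10.67, 11.15, 11.62, 10.85 and 10.29 after LPS and at 9.49, 10.06, 8.08 and 8.67 after saline. These groups did not overlap either. The difference was 1.84 ± 0.41 (interval 0.99 to 2.69, adjusted p = 0.0105). In the bright arrays alone it was 1.37 (adjusted p = 0.0599) and in the dim arrays alone 2.20 (adjusted p = 0.0165). The call ended without saline array 3 (1.51, adjusted p = 0.0589), without saline array 4 (1.71, adjusted p = 0.0567) and in a fit of the LPS and saline arrays by themselves (adjusted p = 0.115).

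The other 6 targets were not called in the fit across all groups. With array weights Tsc22d3 (2.19, adjusted p = 0.002), Zbtb16 (1.95, adjusted p = 0.0322) and Mt2 (1.22, adjusted p = 0.00436) were called as higher. In that fit LPS array 5 had the lowest weight of the 30 arrays (0.0457). Tsc22d3 had 13.16, 12.14, 10.10, 10.71 and 10.57 on LPS arrays and 11.66, 9.26, 9.80 and 9.53 on saline arrays (1.28 ± 0.53, adjusted p = 0.215). Here saline array 1 lay above 3 of the 5 LPS arrays. Zbtb16 had 10.70, 8.55, 7.95, 7.56 and 8.28 after LPS and 7.45, 8.33, 6.91 and 6.82 after saline (1.23 ± 0.52, adjusted p = 0.218). LPS array 1 held the highest level of both genes among the 30 arrays, and of Fkbp5 as well.

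Mt2 was at 12.47 to 14.39 on LPS arrays and 11.97 to 14.10 on saline arrays (0.73 ± 0.32, adjusted p = 0.247). It was called without LPS array 4 (1.01, adjusted p = 0.0441) or without saline array 2 (1.14, adjusted p = 0.0343). Sgk1 had 10.45, 8.41, 10.31, 7.43 and 6.93 after LPS and 7.89, 8.28, 7.89 and 7.30 after saline. Among LPS arrays 2 of the bright ones were high and both dim ones lay at 7.43 or below, with a difference of 0.87 ± 0.62 (adjusted p = 0.529). Ddit4 (0.48 ± 0.41) and Errfi1 (0.13 ± 0.42) had the smallest differences of these targets, and LPS array 5 held the lowest Errfi1 level of the 30 arrays (7.37).

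Of the 22 other glucocorticoid-induced genes 5 were higher after LPS and 0 lower, with a median of 0.49. Cdkn1a (3.51, adjusted p = 2.91e-05), Tgm2 (2.96, adjusted p = 2.43e-05), and the kinase gene Map3k6 (2.87, adjusted p = 0.00152) had the largest differences. The other 2, named after their values were seen, were the lipid droplet gene Plin4 (2.29, adjusted p = 0.0215) and Cebpd (1.98, adjusted p = 0.00938). Fitted on these 9 arrays by themselves 3 of the 22 were called, and 65 of all genes. Between the dim arrays 2 of the 22 were called, and 199 of all genes. Nr3c2 had -0.05 and Hsd11b1 -0.38, and of 7 chaperones Fkbp5 alone was called. Of endothelial markers 0 of 10 were called, with sums of 551 to 1463 on LPS arrays and 421 to 710 on saline arrays. Their part in the results was not tested. Of the pericyte markers 1 of 8 was higher, Rgs5, with sums of 2268 to 6875 and 3832 to 5749. Astrocyte markers summed to 82577 to 151230 on LPS arrays and 94960 to 143768 on saline arrays, lowest on LPS array 5.

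Whether stroke and LPS acted alike on these genes at 1 day was tested as the difference of their effects, MCAO over sham minus LPS over saline. Sult1a1 differed, with -1.03 after MCAO and 1.84 after LPS and a difference of -2.87 ± 0.58 (interval -4.07 to -1.67, adjusted p = 0.0106). It was called under all 30 alternatives run, between -3.21 and -2.40, with adjusted p of at most 0.0352. Over all genes 1.39% were called, 0.699% as lower. Centring moved the median over all genes from -0.12 to -0.01 and gave -2.77 for Sult1a1 (adjusted p = 0.0208).

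The other 8 genes were not called in that test. Fkbp5 had effects of 1.55 and 4.02 (difference -2.48, interval -4.55 to -0.40, adjusted p = 0.261) and Tsc22d3 -0.77 and 1.28 (-2.05, interval -3.59 to -0.50, adjusted p = 0.192). Nr3c1 had -0.70 and 0.20 (-0.90, interval -1.56 to -0.23, adjusted p = 0.183), which was called without saline array 1 (-1.19, adjusted p = 0.0251). Zbtb16 (-1.31), Ddit4 (-0.81) and Mt2 (-0.32) were negative, and Sgk1 (0.86) and Errfi1 (0.65) positive.

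**Figure D3:**
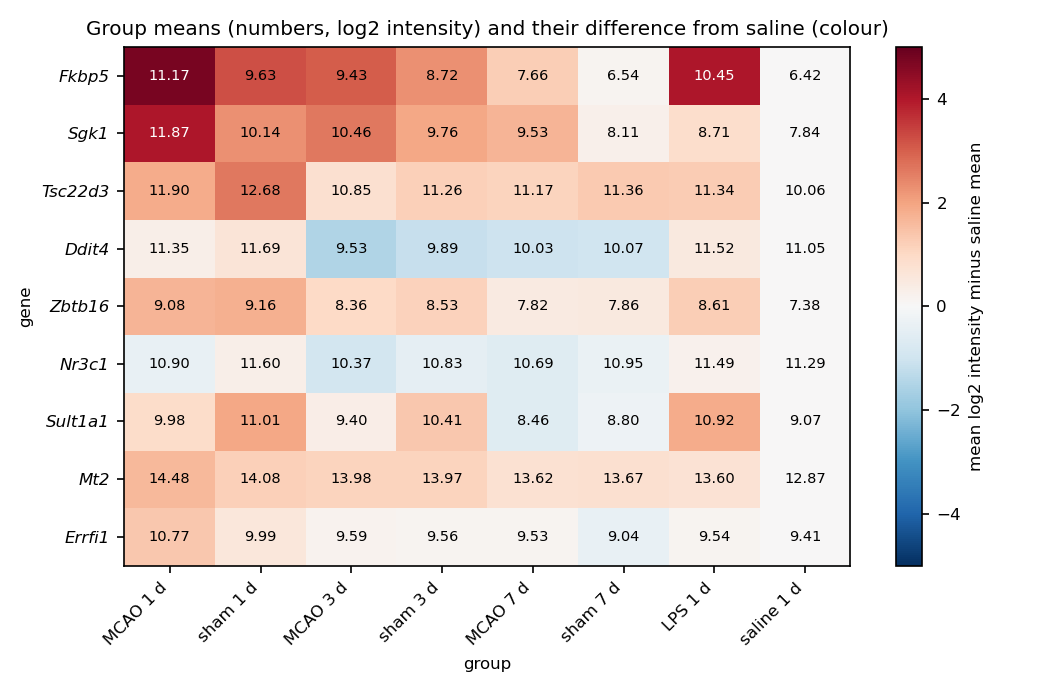
Mean log2 intensity of the 9 genes (rows) in the 8 groups (columns), printed in each cell. Colour gives the difference from the mean of the saline group, red for higher and blue for lower. Fkbp5 and Sgk1 have their highest means 1 day after MCAO (11.17 and 11.87) and their lowest in saline (6.42 and 7.84).

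The control groups themselves differed. Astrocytes taken 1 day after sham surgery had higher levels of 5 of the 9 genes than astrocytes taken 1 day after saline, namely Fkbp5, Sgk1, Tsc22d3, Sult1a1 and Mt2, and all 9 differences were positive. The median was 1.78, beside 0 over all genes. Limma called 5.11% of all genes, 2.92% as higher, and 5 of 9 lies above that share. Without sham array 3 the count was 1, and 227 of all genes were called instead of 804. Since the 9 genes were chosen with earlier results of these data known, the share is a description and not a test. These groups come from different experiments, a surgery and an injection, and in addition all sham arrays were bright, while 2 of the 4 saline arrays were dim. Experiment and treatment cannot be told apart here.

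Tsc22d3 was the member whose call held throughout, with 12.75, 12.52, 13.01 and 12.42 on sham arrays against 11.66, 9.26, 9.80 and 9.53 on saline arrays (2.61 ± 0.56, 6.13-fold, adjusted p = 0.00851). The groups did not overlap and sham was higher, as in 8.29% of all genes. Tsc22d3 was called under all 19 alternatives, with 2.22 in bright arrays alone (adjusted p = 0.0164) and 1.00 with the mean of its probe sets. Fkbp5 had 8.94, 9.48, 11.26 and 8.82 after sham surgery, against 7.63, 6.23, 5.95 and 5.88 after saline (3.20 ± 0.75, 9.21-fold, adjusted p = 0.015). It was 2.70 in bright arrays alone (adjusted p = 0.0237). Sult1a1 had 10.35, 11.37, 11.39 and 10.93, against 9.49, 10.06, 8.08 and 8.67 in saline (1.94 ± 0.44, adjusted p = 0.0118) and 1.24 in bright arrays alone (adjusted p = 0.0404). Neither gene's arrays overlapped between the groups.

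Sgk1 had 8.78, 10.14, 12 and 9.67 on sham arrays and 7.89, 8.28, 7.89 and 7.30 on saline arrays (2.30 ± 0.66, adjusted p = 0.0406). Mt2 had 13.91, 14.20, 14.34 and 13.87, against 12.92, 14.10, 11.97 and 12.51 in saline (1.21 ± 0.34, adjusted p = 0.0364). Both were lost without 7 of the 8 arrays left out in turn, the exceptions being sham array 1 for Sgk1 and saline array 2 for Mt2. In bright arrays alone Sgk1 had 2.06 (adjusted p = 0.0639) and Mt2 0.57 (adjusted p = 0.168). Sham array 3 carried much of the count, of these genes and of all genes (227 called without it, against 804). Without it Tsc22d3 was the 1 gene still called, with Fkbp5 at 2.66 (adjusted p = 0.0772), Sult1a1 at 1.81 (0.0515), Sgk1 at 1.69 (0.187) and Mt2 at 1.12 (0.12). Leaving out sham array 2 or saline array 1, 3 or 4 gave 3 called genes each. These fits called 467, 740, 639 and 368 of all genes.

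Zbtb16 was at 1.78 ± 0.54 (adjusted p = 0.0547), Ddit4 at 0.64, Errfi1 at 0.58 and Nr3c1 at 0.31 ± 0.24. Of the 22 other glucocorticoid-induced genes 3 were higher, Tgm2 (2.21), the hypoxia-inducible factor subunit Hif3a (1.96) and Cdkn1a (1.94), with a median of 0.63. That count was 1 without sham array 2, without sham array 3 or without saline array 4. In those fits 467, 227 and 368 of all genes were called, against 804. Among coregulators Nrip1 had -0.67 and was called as lower, but had 0.05 with the mean of its probe sets.

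Markers of several other cell types, though not of all, were also higher in this comparison. Endothelial markers were higher in 7 of 10 cases (median 2.12), with summed intensities of 2920 to 9973 on sham arrays and 421 to 710 on saline arrays. Oligodendrocyte markers were higher in 4 of 9 cases (median 2.03, sums 17277 to 36853 against 12314 to 16657), neuronal markers in 4 of 10 (median 1.11, 8560 to 16324 against 5599 to 9209) and pericyte markers in 3 of 8 (median 0.80, 5384 to 7816 against 3832 to 5749). Of microglial markers 2 of 10 were higher. Neutrophil and monocyte markers had 0 of 7 called (median -0.01), oligodendrocyte precursor markers 0 of 8 (0.07) and ependymal markers 0 of 6 (0.50). Astrocyte markers had 2 of 11 higher and summed to 146093 to 154097 on sham arrays and 94960 to 143768 on saline arrays. The part of these markers in the differences of the 9 genes was not tested.

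**Figure D4:**
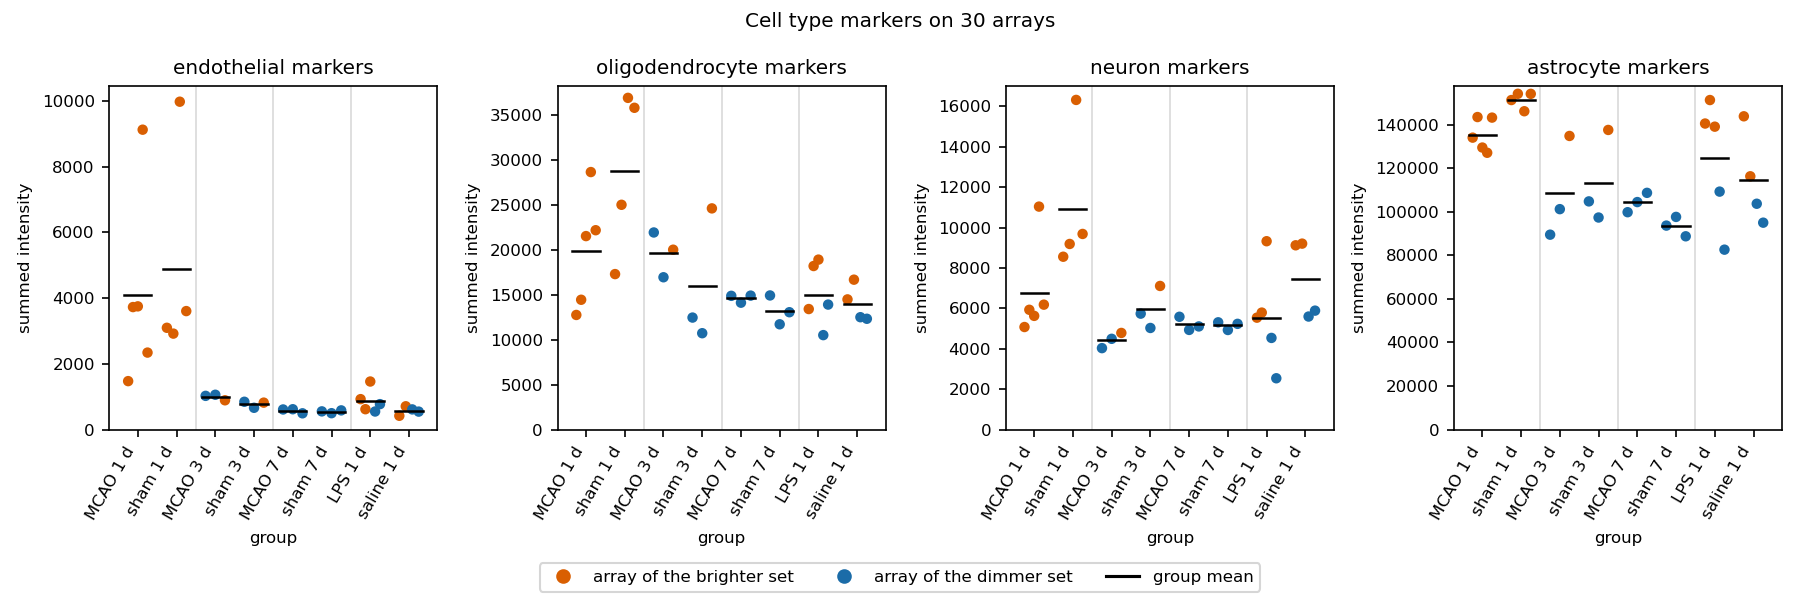
Summed intensity (y axes) of endothelial, oligodendrocyte, neuronal and astrocyte markers on each of the 30 arrays, by group (x axis). Orange points are arrays of the brighter set, blue points arrays of the dimmer set and black lines group means. Endothelial sums are at least 1475 on the 9 arrays of the 1-day surgery groups and at most 1463 elsewhere.

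Across the 8 groups the genes had different orders of level. Fkbp5 means ran from 11.17 at 1 day after MCAO through 10.45 after LPS, 9.63 (sham, 1 day), 9.43 (MCAO, 3 days), 8.72 (sham, 3 days), 7.66 (MCAO, 7 days) and 6.54 (sham, 7 days) to 6.42 in saline. Of these 7 steps the arrays of neighbouring groups overlapped in 6, the exception being MCAO and sham at 7 days. Fkbp5 spanned 7.28 on the log2 scale over single arrays, the widest of the 9, and Nr3c1 2.30, the narrowest. Sgk1, Mt2 and Errfi1 also had their highest mean at 1 day after MCAO (11.87, 14.48 and 10.77). For Tsc22d3, Ddit4, Zbtb16, Nr3c1 and Sult1a1 it was at 1 day after sham surgery (12.68, 11.69, 9.16, 11.60 and 11.01). For Sgk1 the step from the highest to the next group, MCAO at 3 days (10.46), was free of overlap, as were the first 2 steps of Tsc22d3 and 1 step of Mt2. Neighbours overlapped at each step of Ddit4, Zbtb16, Nr3c1, Sult1a1 and Errfi1. Such gaps are common. MCAO and sham arrays lay apart in 27.3% of all genes at 1 day and in 16.3% at 7 days, and shares for the other steps are not given here. The Sgk1 step and the second Tsc22d3 step also set bright arrays against groups of mostly or wholly dim ones.

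The lowest mean was that of saline for Fkbp5, Sgk1, Tsc22d3, Zbtb16 and Mt2. For Ddit4 (9.53) and Nr3c1 (10.37) it was that of MCAO at 3 days, for Sult1a1 (8.46) that of MCAO at 7 days and for Errfi1 (9.04) that of sham at 7 days. Over the 30 arrays, which share groups and sets, Fkbp5 varied most closely with Zbtb16 (Pearson r = 0.77) among the members, and Sgk1 with Errfi1 (0.81) and Mt2 (0.79). Nr3c1 varied with Ddit4 (0.69) and hardly with Fkbp5 (0.05). Outside the members the genes most like each were Map3k6 for Fkbp5 (0.89), Prss23 for Sgk1 (0.90), Stard5 for Tsc22d3 (0.84), Kdm4a for Ddit4 (0.90), Ccsap and Ccrl2 for Zbtb16 (0.78 each), Ilvbl and Rab30 for Nr3c1 (0.90 each), Smox for Sult1a1 (0.86), Rpl22l1 for Mt2 (0.92) and Clic4 for Errfi1 (0.91). The metallothionein gene Mt1 was next for Mt2 (0.90), and transcripts of related sequence may share probes with it.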

How the data were processed

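Expression was measured on Affymetrix mouse arrays from about 20 ng of amplified RNA per sample. The deposited table holds 45037 probe sets as linear intensity, rounded to whole numbers (9 to 35553), made by the authors with RMA (robust multi-array average), per the submitters' processing notes. The software version and the settings are not given in the sources used here. Intensities were taken to log2. Of the probe sets 34945 had 1 gene symbol in the platform annotation, 932 several and 9160 none. Per gene the one with the highest mean was used, and genes with log2 of at least 5 on at least 3 arrays were kept (15726 of 18193). The number of arrays limits the precision. Limma 3.58.1 in R 4.3.3 fitted 1 mean per group over all 30 arrays, and p-values are two-sided and adjusted by the Benjamini-Hochberg method over all genes kept, with calls at 0.05. P-values measure the spread between arrays, which may in part be technical. The numbers in the sample descriptions at 1 day after surgery join MCAO and sham arrays (correlations of deviations 0.23, 0.19, 0.50 and 0.16 for numbers 2 to 5). The best match of an MCAO array was the sham array of its own number for 2 and 4, but not for 3 and 5. The 9 genes and all gene lists were chosen with earlier results of these data known. Named were all 9 genes, up to 3 called genes per other list and comparison with the largest differences, and per member the 2 genes with the highest correlation, of which those most like it are given. Promoter windows and their coordinates are from RefSeq on GRCm38.p6.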

Additional observations from a re-analysis of the deposited data

Results flagged for a closer look

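The effects of MCAO and of LPS on Sult1a1 at 1 day differed, by a test of the difference itself, by -2.87 ± 0.58 on the log2 scale (adjusted p = 0.0106). Sult1a1 was lower on average after MCAO than after sham surgery (-1.03, with all 5 MCAO arrays below 3 of the 4 sham arrays) and higher after LPS than after saline (1.84, above all saline arrays in 5 of 5). Its sham and LPS arrays had like means, 11.01 in sham and 10.92 in LPS. The controls of both experiments thus enter this difference, and sham stood 1.94 above saline. Dixon's test of the 9 genes in the 4 groups of 4 or 5 arrays, 36 tests in all, marked no array, and at these group sizes it could mark only extreme ones.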

How the results depend on the processing

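Over 1620 values of the 9 genes under alternatives, 1481 kept direction and side of the threshold, 35 gained and 38 lost a call, 66 uncalled differences changed sign, and 0 calls reversed. Among other named genes, Nrip1 in sham against saline reversed to 0.05 with the mean of its probe sets. The sets of arrays and fits within them were chosen after seeing the data. Values for bright or dim arrays alone compare the means of those arrays, with a spread pooled over all 30 arrays.

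Of the 9 genes, the count called for MCAO at 1 day (1) became 7 with array weights or with the compared groups alone, 3 with title numbers as replicate block, 2 with the set as covariate, and 0 with the mean of probe sets, quantile normalization or description numbers as replicate block. For LPS (2) it was 5 with array weights, 1 in bright or in dim arrays alone and 0 with compared groups alone. At 3 days (0) it was 1 in dim arrays. For MCAO minus LPS (1) it was 4 with array weights and 3 with the title block. For sham against saline (5) it was 8 with array weights, and 3 in bright arrays or with the set as covariate. Leaving out arrays gave 0 to 1, 1 to 3, 0 to 0, 1 to 2 and 1 to 5 in that order, 0 to 0 at 7 days, and 0 to 0 for 3 or 7 days minus 1 day.

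Over all genes, MCAO at 1 day (1991) gave 6161 with array weights, 5180 with compared groups alone, 1218 with the description block, and 1367 to 1914 without 1 array. At 3 days (106) these were 1937 with weights, 4 bright, 0 alone, 866 dim, 10 with the title block and 3 to 650. At 7 days (4) they were 525, 205 alone, 13 with a filter at log2 6, 7 with the mean of probe sets, 2 with centring or no filter, 14 with quantile normalization, 1 with the title block, 17 with the trended robust fit or the set as covariate, and 2 to 7. LPS (489) gave 1660 with weights, 65 alone, 199 dim, 836 with the set and 225 to 990. MCAO minus LPS (219) gave 2123, 92 alone, 397 with the set and 89 to 472. For 3 days minus 1 day (1) there were 259 with weights, 2 alone, 5 with log2 of intensity plus 16, with centring or with quantile normalization, 16 with the mean of probe sets, 0 with the title block, 6 with the set and 0 to 27. For 7 days minus 1 day (56) there were 3144, 1537 alone and 15 to 68. Sham against saline (804) gave 6074 with weights, 1492 bright, 1851 with the set and 227 to 740. Of the calls, 76.1% were higher for LPS (61.2% with centring, 65.7% with quantile normalization), 49.8% for MCAO minus LPS (66.5% and 64.1%) and 57.1% for sham against saline (40.6% with centring). The causes were not tested.

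Title numbers gave no even pairing, with correlations of deviations from -0.4 to 0.42 between arrays of the same number. At 1 day after surgery these were 0.15, -0.1, -0.24 and -0.11. At 7 days, where title and description numbers are the same, they were 0.37, 0.31 and 0. With title numbers as block Tsc22d3 had 1.47 after LPS (adjusted p = 0.0153). The title block was not run for sham against saline, which belong to different experiments.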
